A study of Mus musculus with 6 samples.

Results

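The clock output genes examined here are Dbp, Tef and Hlf, which encode the PAR bZIP transcription factors, Nfil3, which encodes a bZIP repressor, Ciart, and the bHLH repressor genes Bhlhe40 and Bhlhe41. They were chosen by gene symbol. All 7 were found, each on 1 of the 16060 rows of the deposited table, and all 7 passed the filter on low values, which left 13321 genes. The libraries came from the hippocampus of adult male C57BL/6 mice, 3 given saline (Control) and 3 given methamphetamine (MA), with 1 library per mouse. The MA mice were injected intraperitoneally with escalating doses of 5, 10 and 15 mg/kg in weeks 1, 2 and 3. All mice were kept on a light/dark cycle, took the behavioral tests on day 22 and were sacrificed directly afterwards. According to the methods, testing was confined to daytime hours within the light phase. The hour of sacrifice of each mouse is not given in the sources used here, so whether it differed between the groups is unknown. These genes vary over the day, so an effect of the hour and one of treatment cannot be told apart. No gene was targeted in these mice, and the sources used here leave a doubt about which columns of the table belong to which group. The labels were used as deposited, so the direction of every difference, those of the 7 genes included, holds only between the libraries labelled MA and those labelled Control. The library labelled MA replicate 3 stood apart: it listed 0 genes at the value 0, where the other libraries listed 259 to 437, and limma gave it a sample quality weight of 0.194.

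In the molecular clock, CLOCK and BMAL1 bind E-box sequences and switch on the genes of their own inhibitors, the PER and CRY proteins. They also switch on output genes, among which Dbp is a classic example. DBP, TEF and HLF, named after their region rich in proline and acidic amino acids, bind D-box sequences as activators and carry the rhythm on to further genes. NFIL3 (E4BP4) binds the same D-boxes as a repressor. BHLHE40 (DEC1) and BHLHE41 (DEC2) bind E-boxes and repress them, and CIART (CHRONO) binds BMAL1 and represses its activity. In the brain, the PAR bZIP factors control pyridoxal kinase, the enzyme that makes the active form of vitamin B6, and mice that lack all PAR bZIP factors have seizures. Bhlhe40 and Bhlhe41 also respond to neuronal activity.

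The promoter sequences are shown because CLOCK and BMAL1 bind E-boxes to switch on output genes. Only the windows of Ciart, Bhlhe41 and Tef held an E-box. A RefSeq window of 250 bases before to 50 bases after a gene start (GRCm38.p6) was matched for 6 of the 7 genes, with 2 windows for Tef. No window was found for Bhlhe40, so its promoter was not searched. The window of Ciart is printed whole because it held the most E-boxes, and the capitals mark the letters CACGTG. It lies at chr3:95882179-95882478 on the minus strand.
Ciart: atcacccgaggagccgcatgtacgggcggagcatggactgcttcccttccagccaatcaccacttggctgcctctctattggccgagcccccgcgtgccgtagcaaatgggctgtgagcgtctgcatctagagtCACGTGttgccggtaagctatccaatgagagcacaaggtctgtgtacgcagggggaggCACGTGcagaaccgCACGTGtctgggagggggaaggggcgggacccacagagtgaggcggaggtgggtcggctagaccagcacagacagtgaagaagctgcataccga
The E-boxes of Ciart began 116, 58 and 44 bases before the start. The other windows are represented by short stretches around the motif found in them.
Bhlhe41, E-box, chr6:145865556-145865585, minus strand: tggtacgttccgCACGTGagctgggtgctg
Tef, first window, E-box, chr15:81802534-81802563, plus strand: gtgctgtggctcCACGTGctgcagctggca
Tef, second window, E-box, chr15:81811264-81811293, plus strand: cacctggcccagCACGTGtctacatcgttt
Hlf, cyclic AMP response element, chr11:90390907-90390938, minus strand: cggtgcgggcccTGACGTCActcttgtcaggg
Nfil3, Rev-erb/ROR motif, chr13:52981034-52981063, minus strand: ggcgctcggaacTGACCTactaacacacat
Both strands were searched, and the letters CACGTG read the same on both, so each site was counted once. The motif of Nfil3 is AGGTCA on the opposite strand. These letters are only part of a Rev-erb/ROR site, and the letters beside them were not searched. The motif first letters lay 153 bases before the start in Bhlhe41, 127 and 138 in the windows of Tef, 9 in Hlf and 12 in Nfil3. All distances are to the RefSeq start, which differs from the start in the GENCODE gene coordinates given below. By the GENCODE coordinates the motifs of Tef and Nfil3 lie within the gene. An E-box was present in 7.15% of all 32851 promoter windows and 3 or more were present in 0.0883% of them. The cyclic AMP response element TGACGTCA was present in 1.79% and the Rev-erb/ROR motif AGGTCA in 16.3%. The letters CACGTT (in 4.68% of all windows) and the D-box letters TTATGTAA or TTACGTAA (in 1.06%) were in none of the 7 windows, and the window of Dbp held none of the motifs searched. A match is a description of letters and not a bound site.

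The deposited values were read as log2 of RPKM plus 1, where RPKM is a read count scaled to gene length and library size, so that levels can be compared between genes. Back-transformed to RPKM, Tef was the most abundant of the 7, with 71.7 to 93.7 RPKM over the 6 libraries, and it lay above each other member in every library. Dbp (16.5 to 29.9 RPKM), Bhlhe40 (20.3 to 28.4 RPKM) and Hlf (19.3 to 30.8 RPKM) formed a middle level, and their ranges overlapped. Ciart ranged from 5.71 to 11.4 RPKM, Bhlhe41 from 4.56 to 6.80 RPKM and Nfil3 from 3.24 to 5.75 RPKM. Within the Control libraries these last genes stood in that order without overlap. Within the libraries labelled MA the ranges of Ciart and Bhlhe41 overlapped. Among all tested genes, the mean RPKM of Tef was at percentile 92.6, that of Dbp at percentile 76.3, that of Ciart at percentile 49.7 and that of Nfil3 at percentile 32.1.

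All 7 genes had a lower mean in the libraries labelled MA, as did 52.7% of all tested genes, and 0 of the 7 passed an adjusted p-value of 0.05 (limma with Benjamini-Hochberg adjustment over 13321 genes). In the same fit, 0.263% of all tested genes passed that threshold. For 5 of the 7, Dbp, Nfil3, Ciart, Bhlhe40 and Bhlhe41, the MA and Control libraries did not overlap, with MA below Control, which was the case for 10.2% of all tested genes. An unadjusted limma p-value under 0.05 with a lower mean in MA was reached by 4 of the 7, against 5.46% of all tested genes. The median difference of the 7 was -0.32 on the log2 scale, and the median of all tested genes was -0.01. With sample quality weights, which give a library less weight the more it departs from its group, Ciart and Bhlhe40 passed the adjusted threshold, against 2.05% of all tested genes that passed it in that direction. Tef and Hlf, both PAR bZIP activators, had overlapping groups.

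**Figure D1:**
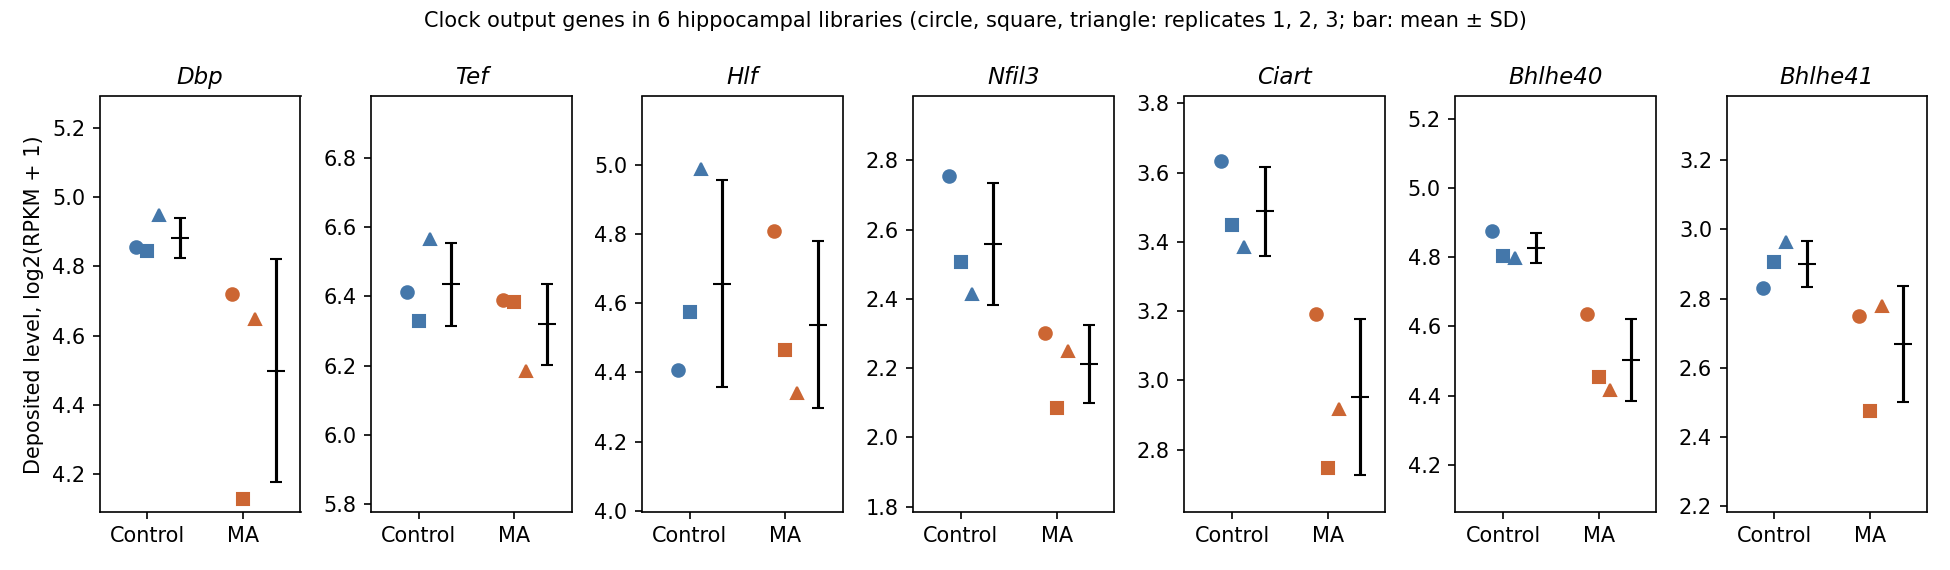
Deposited level of each clock output gene, in log2(RPKM + 1), in the 3 Control (blue) and 3 MA (orange) libraries, with circles, squares and triangles for replicates 1, 2 and 3 and bars for the mean ± SD of each group. Every panel spans the same range of the log2 scale. The groups do not overlap for Dbp, Nfil3, Ciart, Bhlhe40 and Bhlhe41, and they overlap for Tef and Hlf.

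Among the PAR bZIP activators, Dbp (ENSMUSG00000059824) had the largest difference. Its log2 levels were 4.85, 4.84 and 4.95 in Control replicates 1, 2 and 3 and 4.72, 4.13 and 4.65 in MA replicates 1, 2 and 3. The Control libraries lay close together and MA replicate 2 lay far below the rest. The means were 4.88 ± 0.06 (SD, n = 3) and 4.50 ± 0.32 (SD, n = 3), a log2 difference of -0.38 (standard error 0.16, 95% interval -0.75 to -0.02, limma adjusted p = 0.458). In RPKM the mean of the MA libraries was 0.771 of the Control mean. Without MA replicate 2 the log2 difference was -0.20, and the unadjusted interval of the full comparison ended close to 0. Dbp lies on chromosome 7 of GRCm38 from 45705088 to 45710203 and overlaps Sphk2, a sphingosine kinase gene on the other strand. The strand setting of the read counting is not given in the sources used here, so the reads of this overlap cannot be assigned with certainty. Sphk2 had log2 levels of 4.26, 4.36 and 4.43 in the Control libraries and 4.02, 3.81 and 4.33 in those labelled MA. Its log2 difference was -0.30 with overlapping groups (limma adjusted p = 0.523), and MA replicate 2 was the lowest library for it as for Dbp.

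Tef (ENSMUSG00000022389, chromosome 15 from 81802421 to 81826863) had log2 levels of 6.41, 6.33 and 6.57 in the Control libraries and 6.39, 6.38 and 6.18 in those labelled MA. Only MA replicate 3 lay below all Control libraries. The log2 difference of -0.12 (standard error 0.10, 95% interval -0.34 to 0.11, limma adjusted p = 0.736) was smaller than the SD of either group. It was -0.05 without Control replicate 3 and also without MA replicate 3. Hlf (ENSMUSG00000003949, chromosome 11 from 90336536 to 90390895) had log2 levels of 4.41, 4.57 and 4.99 in the Control libraries and 4.81, 4.47 and 4.34 in those labelled MA. Control replicate 3 was the highest library and MA replicate 3 the lowest, with the others interleaved. Its log2 difference was -0.12 (standard error 0.18, 95% interval -0.54 to 0.30, limma adjusted p = 0.874), and without Control replicate 3 it turned to 0.05. The interval of Hlf includes the differences measured for Dbp, Nfil3, Ciart, Bhlhe40 and Bhlhe41. That of Tef includes those of Bhlhe40 and Bhlhe41 but not those of Dbp, Nfil3 and Ciart. Whether the difference of a gene is unlike that of another gene was not tested, so Tef and Hlf cannot be said to have behaved differently from the other members.

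Nfil3 (ENSMUSG00000056749, chromosome 13 from 52967209 to 52981073), the repressor that shares the D-box with the PAR bZIP factors, was the least abundant member. Its log2 levels were 2.75, 2.51 and 2.41 in the Control libraries and 2.30, 2.09 and 2.25 in those labelled MA. Control replicate 1 stood highest, and the gap between the nearest libraries of the groups was 0.11. The log2 difference was -0.35 (standard error 0.12, 95% interval -0.64 to -0.05, limma adjusted p = 0.408), and the mean RPKM was 4.92 in Control and 3.64 in MA. As the activator Dbp and the repressor Nfil3 both had lower means in MA, the distance between them was similar. Dbp exceeded Nfil3 by 2.10, 2.34 and 2.54 on the log2 scale in the Control libraries and by 2.42, 2.04 and 2.40 in those labelled MA. These distances overlapped, with means of 2.32 ± 0.22 and 2.29 ± 0.21 (SD, n = 3 each). Tef exceeded Nfil3 by 3.88 ± 0.25 in Control and by 4.11 ± 0.18 in MA (SD, n = 3 each). For Hlf the distances to Nfil3 were 2.10 ± 0.46 and 2.33 ± 0.21 (SD, n = 3 each). Both were larger by 0.23 in MA, again with overlapping groups.

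Ciart (ENSMUSG00000038550, chromosome 3 from 95878503 to 95882251) had the largest difference of the 7 and the smallest p, at rank 274 of all tested genes. Its log2 levels were 3.63, 3.45 and 3.38 in the Control libraries and 3.19, 2.75 and 2.92 in those labelled MA. The groups were separated by a gap of 0.19, the widest among the members. The means were 3.49 ± 0.13 and 2.95 ± 0.23 (SD, n = 3 each), a log2 difference of -0.54 (standard error 0.14, 95% interval -0.86 to -0.22, limma adjusted p = 0.252). In RPKM the means were 10.3 and 6.80, a ratio of 0.664. Leaving out single libraries gave log2 differences between -0.66 and -0.43. With sample quality weights the adjusted p was 0.0431, and with the replicate number as a block it was 0.472. Ciart overlaps the antisense gene C920021L13Rik, and Tef, Bhlhe40 and Bhlhe41 likewise overlap opposite-strand genes (Gm17597, 0610040F04Rik and Gm43909). As for Dbp, the strand setting is not given, so reads of these overlaps cannot be assigned with certainty. Whether exons overlap was not examined for any of these genes, Dbp included.

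The bHLH repressor genes lie on chromosome 6. Bhlhe40 (ENSMUSG00000030103, from 108660629 to 108666925) had log2 levels of 4.88, 4.81 and 4.80 in the Control libraries and 4.64, 4.46 and 4.42 in those labelled MA. The Control libraries agreed within an SD of 0.04, and the libraries labelled MA all lay below them. The log2 difference was -0.32 (standard error 0.09, 95% interval -0.53 to -0.11, limma adjusted p = 0.287, or 0.0487 with sample quality weights), and the mean RPKM was 27.4 in Control and 21.7 in MA. Bhlhe41 (ENSMUSG00000030256, from 145858243 to 145865558) had log2 levels of 2.83, 2.90 and 2.96 in the Control libraries and 2.75, 2.48 and 2.78 in those labelled MA. MA replicate 2 stood far below the other libraries, and the gap between the groups was 0.05. The log2 difference was -0.23 (standard error 0.11, 95% interval -0.50 to 0.03, limma adjusted p = 0.546), and it was -0.14 without MA replicate 2. Bhlhe40 exceeded Bhlhe41 by 1.93 ± 0.11 on the log2 scale in Control and by 1.83 ± 0.18 in MA (SD, n = 3 each), a distance that overlapped between the groups. For each of the 5 genes without overlap, the exact two-sided permutation test gave p = 0.1, the smallest that 3 libraries against 3 allow, and it gave 0.4 for Tef and 0.6 for Hlf.

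**Figure D2:**
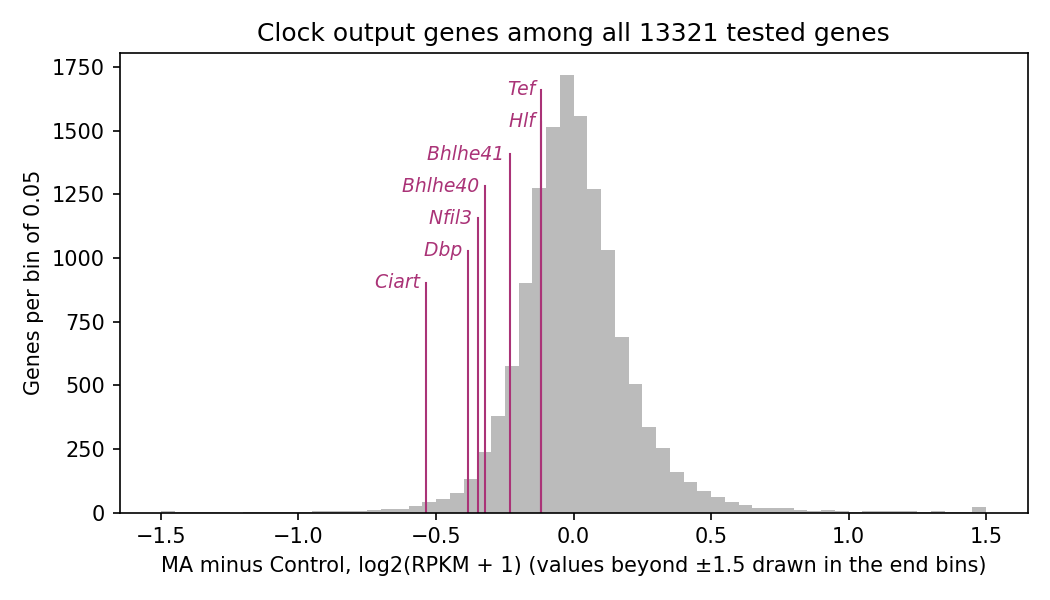
Distribution of the difference between the mean of the libraries labelled MA and that of the libraries labelled Control, in log2(RPKM + 1), over all 13321 tested genes (grey bars, number of genes per bin), with the 7 clock output genes as purple lines. All 7 lie to the left of 0, from Ciart at -0.54 to Tef at -0.12.

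The members did not share 1 order of the libraries. MA replicate 2 was the lowest of the 6 libraries for Dbp, Nfil3, Ciart and Bhlhe41, and MA replicate 3 was the lowest for Tef, Hlf and Bhlhe40. Control replicate 3 was the highest for Dbp, Tef, Hlf and Bhlhe41, and Control replicate 1 for Nfil3, Ciart and Bhlhe40. MA replicate 1 was the highest of the MA libraries for 6 of the 7 genes. The spread within the group was wider in MA than in Control for 4 of the 7, Dbp, Ciart, Bhlhe40 and Bhlhe41.

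**Figure D3:**
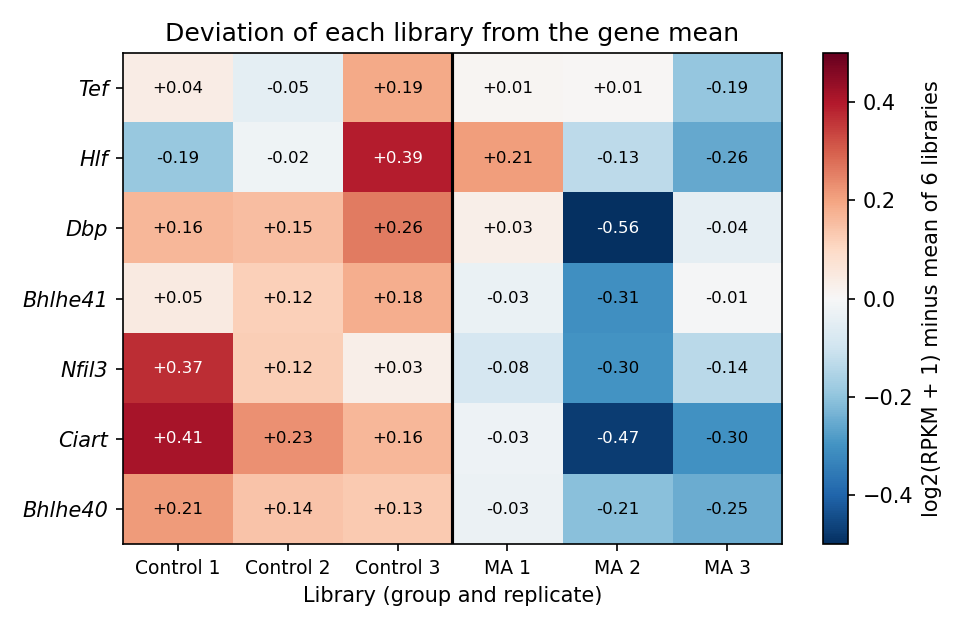
Deviation of each library from the mean of the 6 libraries for each clock output gene, in log2(RPKM + 1), with red above and blue below the mean and the black line between the groups. MA replicate 2 is at -0.56 for Dbp and -0.47 for Ciart, Control replicate 3 is at 0.39 for Hlf, and Tef stays within 0.20 of its mean in every library.

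Across the 6 libraries, the levels of Ciart and Bhlhe40 had a Pearson's r of 0.97 (Spearman's rho 0.94), those of Ciart and Nfil3 0.95 (rho 1), and those of Dbp and Bhlhe41 0.97 (rho 0.89). With the group means removed, these values were 0.86, 0.84 and 0.95. Tef and Hlf had an r of 0.76 (rho 0.60), also 0.76 with the group means removed, whereas Hlf and Nfil3 had an r of -0.02 (rho 0.14). They were picked from 21 pairs after the values were seen and describe 6 libraries that share 1 normalization, so they carry no test. The tested genes outside the 7 whose pattern was most like each member by Pearson's r over the same 6 libraries were Crhr1 (0.998) and Fscn1 (0.979) for Dbp, Lgr4 (0.996) and Fv1 (0.993) for Tef, and Camk2g (0.991) and Ercc8 (0.981) for Hlf. They were Tpd52l2 (0.993) and Chst7 (0.985) for Nfil3, Tmem263 (0.995) and Insm1 (0.994) for Ciart, Sirt1 (0.997) and Slco4c1 (0.995) for Bhlhe40, and Cycs (0.986) and Dhrs7b (0.983) for Bhlhe41. With only 6 libraries, between 12 and 95 genes reached an r over 0.95 with a given member.

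Of the 18 core clock genes, all were tested, and 0 passed the adjusted threshold in either direction (limma). At an unadjusted p under 0.05, 4 had lower and 1 had higher values in the libraries labelled MA, against 10.4% of all tested genes in either direction. Their median log2 difference was -0.07. For 4 of the 18, Per2, Per1, Nr1d2 and Rorb, every library labelled MA lay below every Control library, against 10.2% of all tested genes. Per2 and Per1 encode inhibitors of CLOCK and BMAL1. The log2 difference of Per2 was -0.63 (standard error 0.11, adjusted p = 0.0887 from limma). That of Per1 was -0.29 (standard error 0.08, adjusted p = 0.280 from limma). For Nr1d2, which encodes the repressor REV-ERB beta, the difference was -0.30 (limma adjusted p = 0.420), for the nuclear receptor gene Rorb it was -0.35 (limma adjusted p = 0.435), and for Npas2, a relative of Clock, it was 0.51 (limma adjusted p = 0.437). With sample quality weights Per2 (adjusted p = 0.0158) and Per1 (adjusted p = 0.0444) passed the limma threshold. In that setting 2.05% of all tested genes passed it with lower values in the libraries labelled MA. Arntl, which encodes BMAL1, differed by 0.08 and Clock by -0.12, both with overlapping groups. Over the 6 libraries, the level of Ciart had an r of 0.96 with Per2 (rho 0.94) and 0.95 with Per1 (rho 0.94), or 0.89 with each once the group means were removed. The level of Dbp had an r of -0.74 with Arntl (rho -0.54), or -0.64 once the group means were removed. These pairs, too, were picked from many and describe the same 6 libraries, so they carry no test.

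**Figure D4:**
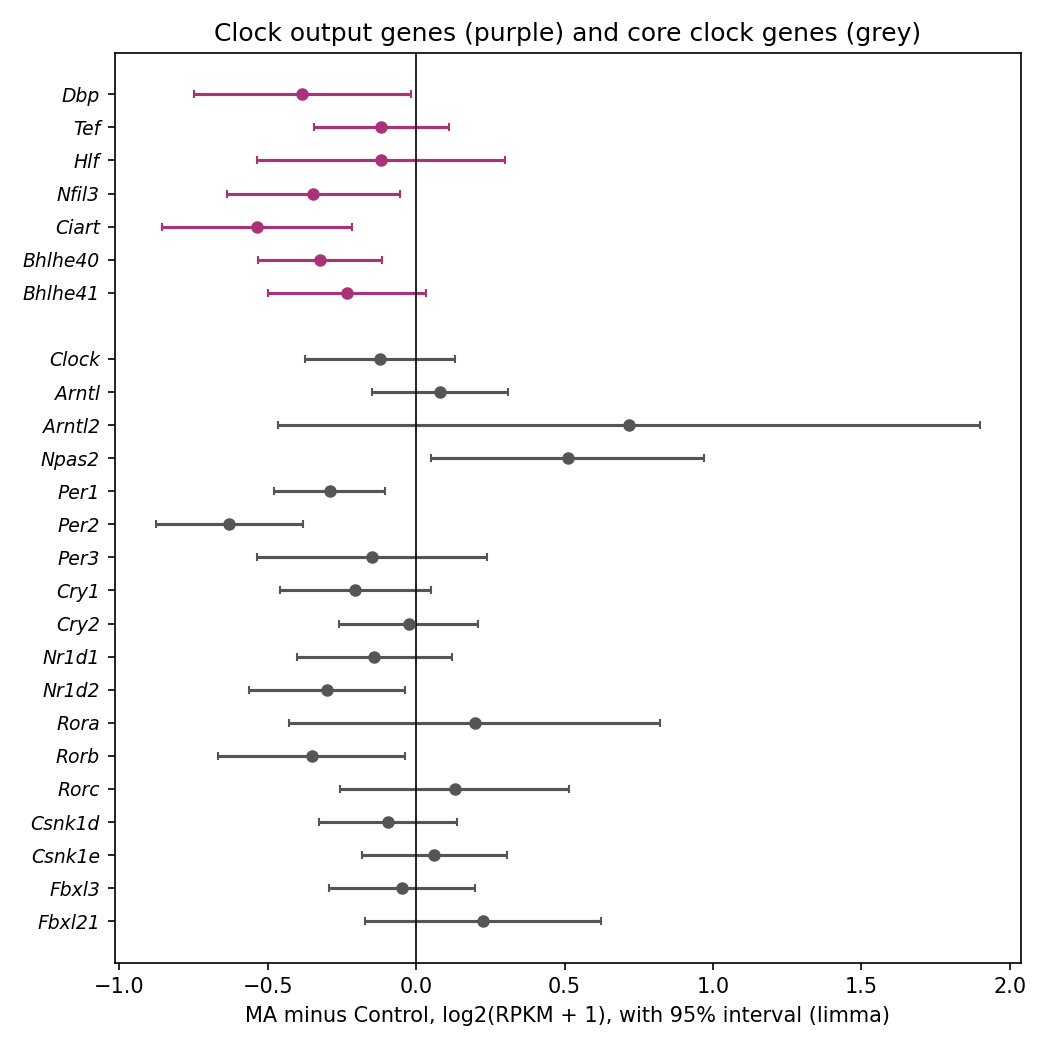
Difference between the libraries labelled MA and Control in log2(RPKM + 1) for the clock output genes (purple) and the core clock genes (grey), with the 95% interval of the limma fit, which is not adjusted for the number of genes. The intervals of Dbp, Nfil3, Ciart, Bhlhe40, Per1, Per2, Nr1d2 and Rorb lie below 0 and that of Npas2 lies above it.

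Further lists place the members beside genes they act on, relatives and other responsive genes. Of 6 known target genes of the PAR bZIP factors, 3 were tested and 0 passed the adjusted threshold, with Pdxk, the pyridoxal kinase gene, at 0.09, Por at -0.14 and Alas1 at -0.15 on the log2 scale, all with overlapping groups. At an unadjusted p under 0.05 the count was also 0. The 4 genes that cycle in most mouse organs beside the core clock gave 0 calls by the adjusted and by the unadjusted p, and among them Usp2, a ubiquitin protease gene, differed by 0.21 (limma adjusted p = 0.478) with each library labelled MA above each Control library. The C/EBP family, bZIP relatives that bind similar sequences, gave 0 calls of 5 tested genes by either p, with a median of -0.21 and the smallest p for Ddit3, at -0.36 (limma adjusted p = 0.516). The Hes and Hey repressors, bHLH relatives of Bhlhe40 and Bhlhe41, gave 0 calls of 7 and, at an unadjusted p under 0.05, 2 higher and 1 lower, against 10.4% of all tested genes in either direction. Hey2 was at -0.46 (limma adjusted p = 0.339), Heyl at 0.48 (limma adjusted p = 0.350) and Hes5 at 0.77 (limma adjusted p = 0.383). Of 8 glucocorticoid-induced genes 1 passed, against 0.263% of all tested genes. It was Plin4, which encodes a lipid droplet protein, at 1.27 (limma adjusted p = 0.0403). Of the 13 immediate early genes, which neurons switch on when they are active, 6 passed the adjusted threshold, all of them lower in the libraries labelled MA, and the median log2 difference was -1.32. Arc was at -1.80 and Egr1 at -1.46 (limma adjusted p = 0.0181 for each), Fosb at -1.32 and Nr4a1 at -1.45 (limma adjusted p = 0.0244 for each), Fos at -1.61 (limma adjusted p = 0.0315) and Junb at -1.26 (limma adjusted p = 0.0456). The doubt about the group labels applies to the direction of these genes as well.

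The libraries differed in marker genes of other cells. The 8 markers of hippocampal neurons were all present, with a summed level of 934 to 1021 RPKM in Control and 752 to 1196 RPKM in the libraries labelled MA. Of these 8, 7 had a lower mean in MA, as did all 7 clock output genes and 52.7% of all tested genes. The adjusted threshold (limma) was passed by 0 of the 8 markers. At an unadjusted p under 0.05, 2 were lower, against 5.46% of all tested genes, and the median log2 difference was -0.11. All 5 astrocyte markers had a lower mean in MA, 0 past the adjusted threshold and 1 at an unadjusted p under 0.05, with a median of -0.16 and sums of 309 to 336 RPKM in Control and 246 to 349 RPKM in MA. All 9 markers of the choroid plexus were higher in MA, 5 of them past the adjusted threshold (limma), and their summed level was 66.1 to 422 RPKM in Control and 1783 to 5095 RPKM in MA, with the highest value in MA replicate 3. All 5 red blood cell markers were higher as well, 3 past the threshold, with sums of 1599 to 2024 RPKM in Control and 3319 to 4378 RPKM in MA. Of all tested genes, 0.263% passed the adjusted threshold. No marker of these lists was listed at 0. Thalamic markers summed to 23.2 to 29.2 RPKM in Control and to 63.5, 88.5 and 24.2 RPKM in MA replicates 1, 2 and 3. Of 6 hypothalamic markers, 2 passed the filter and 3 were listed at 0 in at least 1 library. The 6 summed to 4.70 to 6.29 RPKM in Control and to 4.24, 18.1 and 7.88 RPKM in MA replicates 1, 2 and 3. The mean in MA was lower for 5 of 6 oligodendrocyte and 3 of 5 microglia markers and higher for all 4 endothelial markers, with 0 past the adjusted threshold. The part of these cells in the differences of the clock output genes was not tested, and in tissue RNA fewer cells that express a gene and less of its RNA per cell cannot be told apart. Leaving out MA replicate 3 does not remove the choroid plexus difference, since MA replicates 1 and 2 summed to 1783 and 2315 RPKM. Without it, the log2 differences were -0.46 for Dbp, -0.05 for Tef, -0.02 for Hlf, -0.36 for Nfil3, -0.52 for Ciart, -0.28 for Bhlhe40 and -0.29 for Bhlhe41.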

How the data were processed

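Hippocampal RNA of 3 Control and 3 MA mice was sequenced. According to the methods, the authors used Hisat2 for alignment, featureCounts for counting and gene length for conversion to FPKM, whereas the submitters' processing notes name Bowtie 0.12.2 and the builds mm8 and mm9. The authors deposited log2 values, named as RPKM. Base 2 and an offset of 1 were inferred: base 2 gives sums of 487712 to 488572 RPKM per library and base e at least 6553046. All 6 libraries shared the highest value, so a normalization between libraries that no source describes had been applied. No read totals are given, so the depth is unknown. Coordinates are those of GENCODE M21 (GRCm38), for location only. Genes with at least 0.5 RPKM in at least 3 libraries were tested as deposited with limma 3.58.1 in R 4.3.3 (lmFit, eBayes with trend, no covariate, Benjamini-Hochberg adjustment), tested on simulated data beforehand. The replicate numbers come from the labels. After removal of the group means, Control and MA libraries of replicate number 1, 2 and 3 correlated at -0.197, -0.242 and -0.337 across genes, so they were not treated as pairs. The members and gene lists were chosen with earlier results of these data known. Named were all members, every list gene past the threshold, up to 4 genes of a list with the smallest p, and the 2 genes most like each member. Npas2, Arntl, Clock and Sphk2 were named after their values were seen. Promoter windows were taken from RefSeq (GRCm38.p6), and proteins were not analysed here.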

Additional observations from a re-analysis of the deposited data

How the results depend on the processing

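The 7 clock output genes were recomputed under 15 alternatives: offsets of 0.1 and 0.01, no filter, a minimum mean of 5 RPKM (which Nfil3 did not pass), median centring, quantile normalization, eBayes without trend, sample quality weights, the replicate number as a block, and each library left out in turn. Of the 104 values, 103 kept their direction. The exception was Hlf without Control replicate 3, at 0.047, and leaving out 1 library gave a range of -0.25 to 0.047 for it. Both filter settings, eBayes without trend and the replicate block leave a log2 difference unchanged, so there the direction was kept by construction. Median centring and quantile normalization could change it little, as the library medians were already close, at 2.76 to 2.77 on the log2 scale. The number of clock output genes past an adjusted p of 0.05 was 0, and 2 with sample quality weights. For the core clock genes it was 0, 2 with sample quality weights, and from 0 to 1 without 1 library (1 without MA replicate 3). Over all genes, 35 passed in the main comparison, 3 without a filter, 20 with a minimum mean of 5, 586 with sample quality weights and from 0 to 257 without 1 library, with 257 without MA replicate 3. With the replicate block 15 passed, and it changed no call of a clock output gene. The weight of MA replicate 3 was 0.194 and that of MA replicate 2 was 2.45. The cause of these changes was not tested. A pseudocount of 1 was the deposited scale itself.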
